A study of Mus musculus with 6 samples.

Results

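The mouse genome's collagen genes were examined in hippocampal RNA from TonEBP+/- mice (HET) and their wild-type littermates (WT). Members were all rows whose symbol was Col, a number, a, and a number, which gave 44 genes of the 24346 listed for each library. They comprised 11 chains of the fibrillar collagens, 6 chains of the basement membrane collagen IV, and 27 others. The others were 9 fibril-associated collagens, 7 beaded filament collagens, 4 transmembrane collagens, 3 network collagens of type VIII and X, 2 multiplexins, the anchoring fibril gene Col7a1 and Col26a1. The membership rule used names only and no measured value.

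The 6 libraries came from the hippocampus of C57BL/6 mice aged 12 months, 3 from TonEBP+/- mice and 3 from wild-type mice. TonEBP is a transcription factor that responds to osmotic stress and inflammation, and it is encoded by Nfat5. TonEBP+/- mice carry 1 disrupted copy in every cell rather than in a chosen cell type. Wild-type mice had both copies, and the mice of both genotypes came from crosses between TonEBP+/- mice on a C57BL/6J background. The labels give no sex and no treatment, and they do not state that each library is a separate animal, so p-values measure only the spread between these libraries. Nfat5 was at 8.25, 9.31 and 8.42 FPKM in HET 1 to 3, against 10.5, 8.39 and 9.72 FPKM in WT 1 to 3. The genotypes overlapped in the transcript of the targeted gene itself. FPKM count fragments for each kilobase of a transcript, corrected for library depth, and allow levels of different genes to be compared per length.

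From the step between low values the depth was estimated at 8020000, 8830000 and 12700000 fragments in HET 1 to 3 and at 10800000, 8730000 and 9580000 fragments in WT 1 to 3. At these depths 1 fragment in a transcript of 1 kilobase is worth 0.0786 to 0.125 FPKM, so a collagen at 0.1 FPKM rests on a handful of fragments. Hippocampal pyramidal and granule cell markers were present in every library, and 12 of 12 passed the expression filter, with summed levels of 329 to 380 FPKM in HET and 334 to 350 FPKM in WT libraries. Markers of neighbouring tissue differed between libraries. Summed choroid plexus markers (10 genes) reached 1800, 98.0 and 3466 FPKM in HET 1 to 3, against 1064, 2899 and 284 FPKM in WT 1 to 3. The libraries differed 35.4-fold within HET and 10.2-fold within WT. Summed thalamus markers (12 genes) were 285, 155 and 153 FPKM in HET 1 to 3, against 254, 282 and 260 FPKM in WT 1 to 3, so HET 2 and HET 3 were low.

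Collagens are proteins of 3 chains wound into a triple helix, which requires a glycine in each Gly-X-Y triplet of residues. Fibrillar collagens form the long cross-banded fibres of connective tissue, collagen IV forms the sheet of the basement membrane, and the other types coat fibres, link layers or span the cell membrane. Healthy brain tissue holds little fibrillar collagen. Its collagens lie mostly in the basement membranes of vessels, in the meninges that cover the brain, and in the choroid plexus, the secretory epithelium that makes cerebrospinal fluid.

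The repeat that defines the family could be read from the transcripts. The longest run of triplets that each begin with a glycine codon was measured in the protein-coding transcripts of GENCODE M21 as a GG pair at every ninth base. It was sought in every frame of the whole transcript, so the reading frame was not used. All 44 members had a run of 10 or more triplets, against 56 of 19833 other genes in the tables (0.282%). In fibrillar chains the longest run spanned 216 to 344 triplets, with a median of 338, and the shortest belonged to Col24a1 (216) and Col27a1 (217). Collagen IV chains, whose helix is known to be broken by short interruptions, had 39 to 66. The other collagens ranged from 23 to 113, with 40 in Col25a1, 60 in Col8a2, 61 in Col8a1 and 113 in Col9a3. In this measure the fibrillar chains stood above both other classes, while the range of collagen IV lay inside that of the other collagens. Since the repeat defines the family, these counts describe the members and are no separate test of the list.

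**Figure D1:**
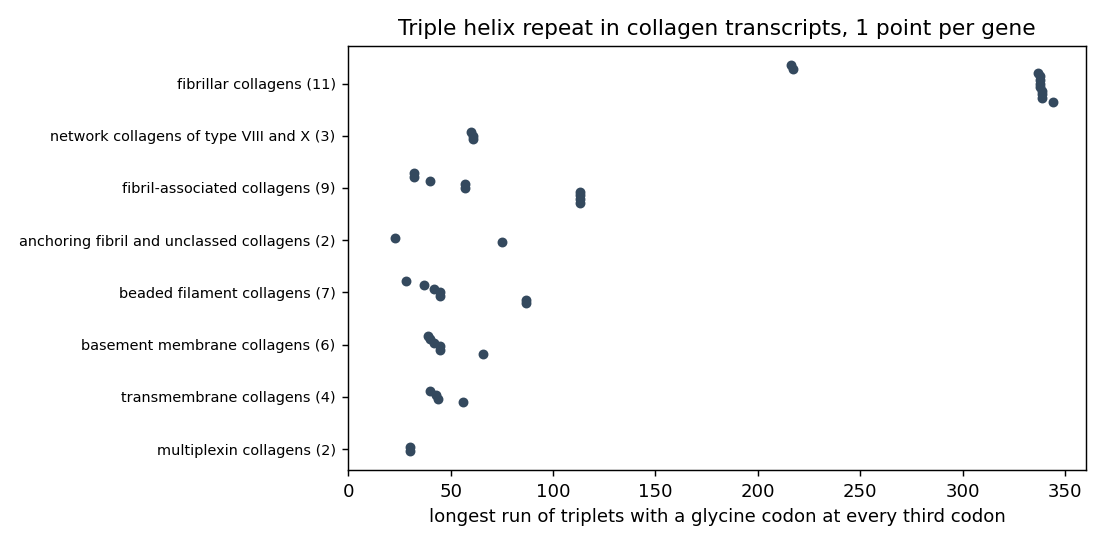
Longest run of triplets that each begin with a glycine codon in any transcript of each collagen gene, by structural group, with 1 point per gene and the number of genes in brackets. The 11 fibrillar chains lie at 216 to 344, above every other group, whose highest value is 113.

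The promoters of 4 members are shown because these genes stand in the pairs whose levels are followed below. Col8a1 and Col8a2 lie on different chromosomes and encode the chains of collagen VIII. Col4a1 and Col4a2 are transcribed in opposite directions from starts 84 bases apart, so 1 window covers both starts. Col4a3 and Col4a4 are arranged in the same way, with starts 113 bases apart, and so are Col4a5 and Col4a6, with starts 1275 bases apart. These distances take the outermost end of each gene as its start. Each window runs from 250 bases before to 50 bases after the start of transcription, 5′ to 3′ on the strand of the named gene, and is taken from RefSeq (GRCm38.p6). The windows of Col4a1 and Col4a4 are set on starts that lie inside the outermost gene end. Capitals mark GGGCGG or its reverse complement CCGCCC, the GC box.
Col8a1 (chr16:57754688-57754987, minus strand): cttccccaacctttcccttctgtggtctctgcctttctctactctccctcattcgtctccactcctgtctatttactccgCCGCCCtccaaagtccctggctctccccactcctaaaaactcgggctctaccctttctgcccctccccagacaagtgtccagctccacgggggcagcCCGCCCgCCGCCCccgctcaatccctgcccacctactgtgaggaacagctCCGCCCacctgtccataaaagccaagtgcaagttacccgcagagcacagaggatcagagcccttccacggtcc
Col8a2 (chr4:126286544-126286843, plus strand): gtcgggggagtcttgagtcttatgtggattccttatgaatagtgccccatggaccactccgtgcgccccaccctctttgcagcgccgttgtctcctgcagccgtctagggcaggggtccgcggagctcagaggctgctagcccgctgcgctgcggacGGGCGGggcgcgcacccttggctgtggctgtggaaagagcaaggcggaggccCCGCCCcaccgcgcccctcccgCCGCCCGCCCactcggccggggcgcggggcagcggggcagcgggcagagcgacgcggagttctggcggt
Col4a4 (chr1:82586800-82587099, minus strand, over the start of Col4a3): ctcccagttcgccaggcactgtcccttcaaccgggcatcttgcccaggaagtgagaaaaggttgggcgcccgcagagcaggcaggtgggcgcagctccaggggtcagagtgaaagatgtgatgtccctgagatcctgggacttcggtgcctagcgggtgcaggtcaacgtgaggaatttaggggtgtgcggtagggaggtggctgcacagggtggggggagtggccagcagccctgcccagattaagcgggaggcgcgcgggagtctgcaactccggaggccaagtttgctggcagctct
Col4a1 (chr8:11312777-11313076, minus strand, over the start of Col4a2): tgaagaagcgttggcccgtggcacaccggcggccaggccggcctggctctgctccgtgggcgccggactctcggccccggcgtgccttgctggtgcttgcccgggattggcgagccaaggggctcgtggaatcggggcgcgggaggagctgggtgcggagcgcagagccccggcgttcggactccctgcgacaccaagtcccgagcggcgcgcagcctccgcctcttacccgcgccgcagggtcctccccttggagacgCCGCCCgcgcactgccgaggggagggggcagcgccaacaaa

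The Col8a1 and Col8a2 windows each held 4 GC boxes, the Col4a1 window held 1 and the Col4a4 window held 0. RefSeq windows matched 35 of the 44 members, some with more than 1 start, for 38 windows in all. GGGCGG was found on either strand in 23 of the 38 (60.5%), against 11714 of 32851 windows of the same length over all genes (35.7%). Its count depends on the GC content of a window, which was not matched between the sets. The median GC content was 52.7% over all windows, and member windows ranged from 37.7% (Col3a1) to 75.0% (Col5a1). Other short motifs were searched on both strands in the same way. CCAAT stood in 34.2% of member windows and 37.4% of all windows, and TATAA in 18.4% and 24.9%. TGGAAA, the core of the element bound by TonEBP, stood in 13.2% of member windows and 21.4% of all, and it is part of the longer TonE consensus, which stood in 1 of 38 member windows (2.63%), that of Col4a6, and in 4.96% of all. These are counts of letters in windows and not of bound sites.

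Most collagens were scarce in these hippocampi. Only 13 of the 44 reached 1 FPKM in at least 3 of the 6 libraries, the filter for testing. Another 27 averaged 0.1 FPKM or more, and the remaining 4, Col24a1, Col6a6, Col7a1 and Col28a1, averaged less. The collagens together summed to 52.5 ± 5.78 FPKM in HET and 47.0 ± 2.32 FPKM in WT libraries (SD, n = 3 each).

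**Figure D2:**
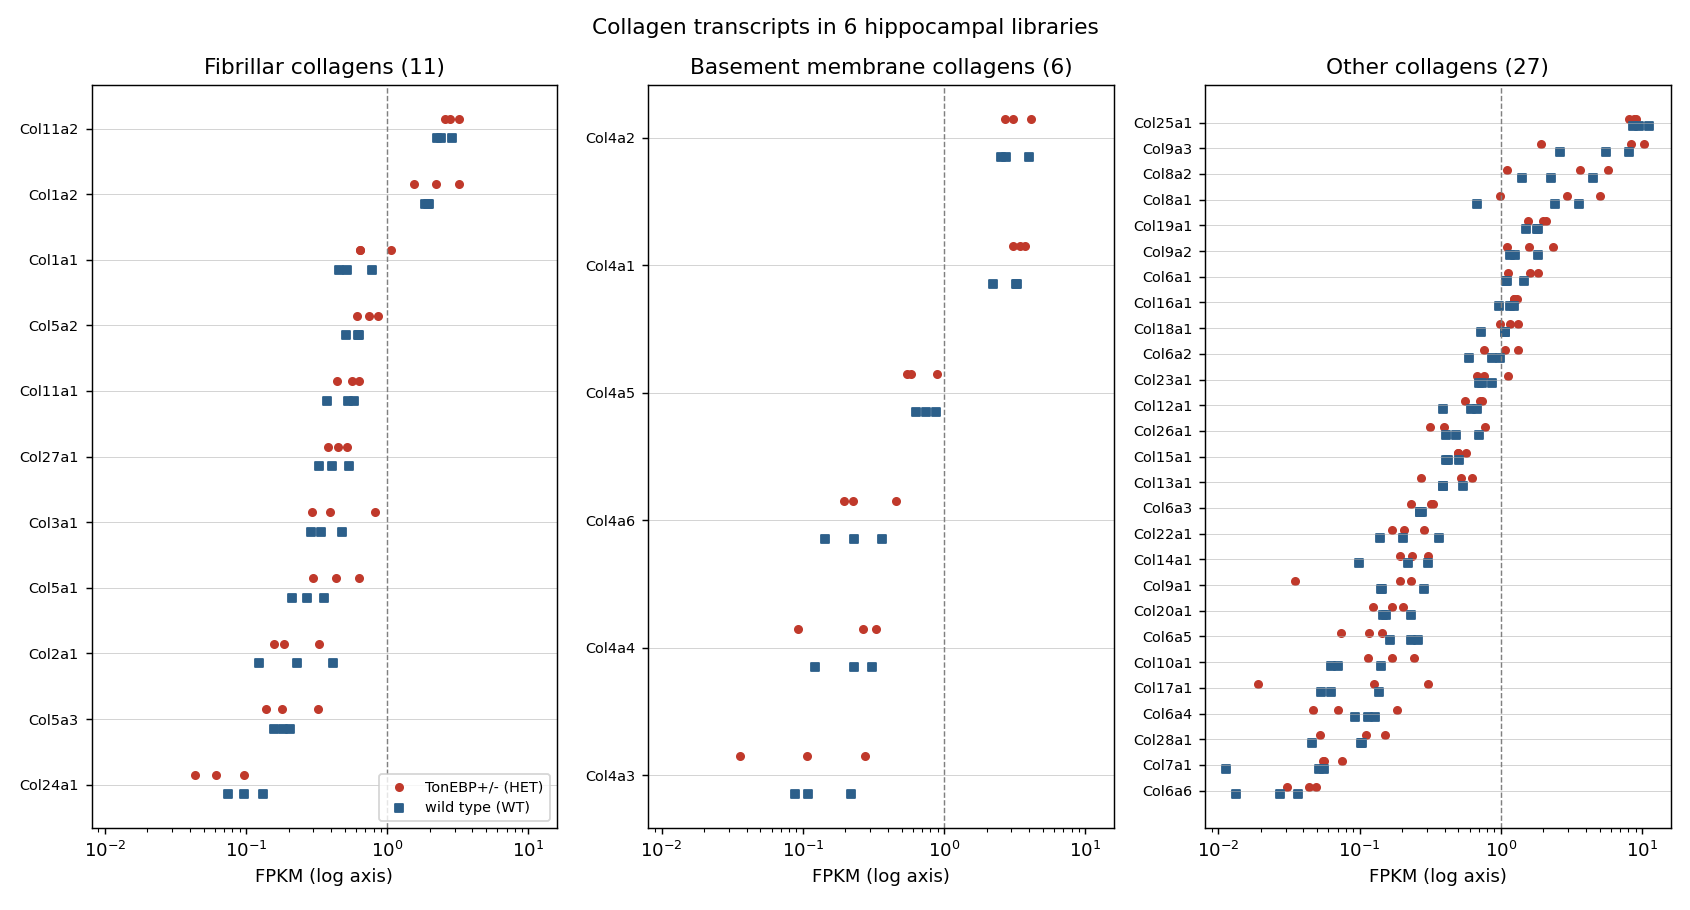
Level of each of the 44 collagen genes in each library, in FPKM on a log axis, by class and ordered by mean, with TonEBP+/- libraries as circles above wild-type libraries as squares. The dashed line marks 1 FPKM. Col25a1 stands highest at 8.14 to 11.3 FPKM, and Col9a3, Col8a2 and Col8a1 have the widest spread among the abundant members.

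Among the fibrillar chains only Col11a2 and Col1a2 passed the filter. Col11a2, a chain of collagen XI that is best known from cartilage, was at 3.25, 2.78 and 2.57 FPKM in HET 1 to 3, against 2.39, 2.24 and 2.89 FPKM in WT 1 to 3. Col1a2, the second chain of collagen I, was at 1.54, 3.23 and 2.20 FPKM in HET 1 to 3, against 1.99, 1.85 and 1.95 FPKM in WT 1 to 3. The 3 WT libraries were nearly level for Col1a2, while the HET libraries lay on both sides of them. Its partner Col1a1, which supplies the other chains of the collagen I triple helix, was lower, at 0.647, 1.06 and 0.640 FPKM in HET 1 to 3 and 0.519, 0.456 and 0.777 FPKM in WT 1 to 3. Col5a2, a chain of the collagen V that starts collagen I fibrils, was at 0.610, 0.855 and 0.744 FPKM in HET 1 to 3 and 0.507, 0.624 and 0.631 FPKM in WT 1 to 3. In both, HET 2 was the highest library and the genotypes overlapped. Col11a1, Col27a1, Col3a1, Col5a1, Col2a1 and Col5a3 had means of 0.197 to 0.522 FPKM, and Col24a1 had the lowest fibrillar mean at 0.0840 FPKM.

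In the basement membrane class the ubiquitous chains Col4a1 and Col4a2, which assemble together in vessel walls, stood at the same level per length, with means of 3.16 and 3.19 FPKM over the 6 libraries. Col4a1 was at 3.45, 3.75 and 3.05 FPKM in HET 1 to 3, against 3.26, 2.21 and 3.24 FPKM in WT 1 to 3. Col4a2 was at 3.07, 4.10 and 2.68 FPKM in HET 1 to 3, against 2.73, 2.54 and 4.02 FPKM in WT 1 to 3. For both, HET 2 was the highest and WT 2 the lowest library. Col4a5, an X-linked chain mutated in Alport syndrome, averaged 0.712 FPKM. It was at 0.542, 0.581 and 0.895 FPKM in HET 1 to 3 and 0.743, 0.882 and 0.629 FPKM in WT 1 to 3. Col4a6, its neighbour on the X chromosome, was at 0.226, 0.457 and 0.196 FPKM in HET 1 to 3 and 0.142, 0.366 and 0.228 FPKM in WT 1 to 3. Col4a4 and Col4a3, the chains of the mature kidney filter, were lowest, with means of 0.225 and 0.139 FPKM. Both of these are plotted below because, within each genotype, their libraries had the order of the choroid plexus markers.

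Among the other collagens Col25a1 was the most abundant collagen of all, with a mean of 9.23 FPKM. It encodes a transmembrane collagen made by neurons whose shed part is known from amyloid plaques. It was at 8.14, 9.06 and 8.71 FPKM in HET 1 to 3, against 9.58, 8.64 and 11.3 FPKM in WT 1 to 3. Its highest library exceeded its lowest by 1.38-fold. Col9a3, a fibril-associated chain of collagen IX, was at 8.37, 1.92 and 10.3 FPKM in HET 1 to 3, against 5.57, 8.11 and 2.61 FPKM in WT 1 to 3. Col8a2 was at 3.63, 1.10 and 5.69 FPKM in HET 1 to 3, against 2.28, 4.48 and 1.40 FPKM in WT 1 to 3. Col8a1 was at 2.92, 0.989 and 5.00 FPKM in HET 1 to 3, against 2.41, 3.56 and 0.676 FPKM in WT 1 to 3. The members of this trio rose and fell over the same libraries, with HET 2 and WT 3 low for each, and their highest library exceeded the lowest by 5.39-fold, 5.16-fold and 7.40-fold in that order.

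The remaining tested members of the class varied less. Col6a1, a chain of the beaded filaments that surround cells, was at 1.13, 1.83 and 1.62 FPKM in HET 1 to 3, against 1.46, 1.09 and 1.10 FPKM in WT 1 to 3. Col18a1, a vessel-wall multiplexin that gives rise to endostatin, was at 0.993, 1.16 and 1.33 FPKM in HET 1 to 3, against 1.08, 1.07 and 0.727 FPKM in WT 1 to 3. The genotypes overlapped in both. Col16a1, a fibril-associated collagen, was at 1.30, 1.24 and 1.25 FPKM in HET 1 to 3, against 1.23, 0.964 and 1.16 FPKM in WT 1 to 3. It was the only tested member with no overlap between genotypes. The lowest HET library lay just above the highest WT library. Col19a1 and Col9a2, also fibril-associated, had means of 1.79 and 1.54 FPKM. The untested members were Col6a2 at a mean of 0.934 FPKM, Col23a1, Col12a1, Col26a1, Col15a1, Col13a1, Col6a3, Col22a1, Col14a1, Col9a1, Col20a1, Col6a5, Col10a1, Col17a1 and Col6a4 at means of 0.106 to 0.810 FPKM, and Col28a1, Col7a1 and Col6a6 at 0.0334 to 0.0943 FPKM.

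Col9a3, Col8a2 and Col8a1 varied between libraries with the choroid plexus markers, in HET and in WT alike. The relation was computed after the members' values had been seen, for all 44 members, against the mean log2(FPKM + 1) of the 10 markers. Ranked by that mean, the libraries ran HET 3, WT 2, HET 1, WT 1, WT 3, HET 2. Among HET libraries Col9a3, Col8a2 and Col8a1 fell in the order HET 3, HET 1, HET 2, and among WT libraries in the order WT 2, WT 1, WT 3, the order of the markers in both genotypes. That order within both genotypes was found for these 3 of the 13 tested members, and for 736 of 13099 tested genes that were neither collagens nor markers (5.62%).

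A slope on the marker mean was fitted beside genotype with limma over all 13122 genes tested, with Benjamini-Hochberg adjustment over all of them. It was positive and past an adjusted p of 0.05 for 124 genes (0.945%), the 10 markers included, and for 3 of the 13 tested collagens. The slope is the change in log2(FPKM + 1) for each log2 unit of the marker mean. It was 0.68 for Col9a3 (SE 0.0485, limma adjusted p = 6.66e-05), 0.56 for Col8a2 (SE 0.0527, limma adjusted p = 0.000435) and 0.58 for Col8a1 (SE 0.0671, limma adjusted p = 0.00186). Each of the 3 thus increased with the markers, with a slope below 1 on this scale, which understates differences of low genes. With a pseudocount of 0.1 for the genes and the same marker mean, the slopes were 0.82 for Col9a3, 0.77 for Col8a2 and 0.85 for Col8a1. Without HET 3 the Col8a1 slope was 0.57 with a limma adjusted p of 0.0515, and the other 2 stayed past the threshold without any single library. The other 10 tested members did not pass, and the nearest was Col4a2, with a slope of -0.18 (SE 0.0512, limma adjusted p = 0.196).

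Over the 6 libraries Pearson's r with the marker mean was 0.989 for Col9a3 (Spearman's rho 0.943), 0.984 for Col8a2 (rho 1) and 0.954 for Col8a1 (rho 0.943). The two-sided exact permutation p over the pairings of r was 0.00556 for Col9a3, 0.00278 for Col8a2, which is the smallest that 6 libraries give, and 0.0139 for Col8a1. Adjusted over the 44 relations computed, the exact permutation p was 0.0407 for Col9a3, 0.0306 for Col8a2 and 0.0873 for Col8a1, so that of Col8a1 did not pass. Of the 44 relations, 6 passed, the others being those of Col4a4, Col4a3, Col13a1 and Col17a1, which are under the filter and described below. The adjusted p of Col9a3 and Col8a2 depends on the equally small p of these scarce genes. Without HET 2 and WT 3, the libraries farthest from the median of the markers, r was 0.930, 0.995 and 0.969 in the same order. An r over the 4 libraries left is easily high, as for Col6a2, with 0.991 there and -0.27 over all 6. Whether the relation rests on HET 2 and WT 3 cannot be told from it. The collagen VIII chains were related to each other, with r = 0.961 between Col8a1 and Col8a2 (rho 0.943) and r = 0.935 without HET 2 and HET 3. The two-sided exact permutation p was 0.00556, and 0.0222 adjusted over the 4 listed pairs in which both genes passed the filter. Of these pairs, 3 join chains of 1 collagen type. As both collagen VIII chains varied with the marker mean over the same 6 libraries, the r between them is not independent of those relations. In the other pairs r was 0.658 for Col4a1 with Col4a2, 0.508 for Col4a1 with Col6a1 and -0.52 for Col9a2 with Col9a3, with rho of 0.829, 0.600 and -0.60 and exact permutation adjusted p of 0.1, 0.311 and 0.311 for r. Of these other pairs, the collagen IX chains had an r below 0.

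**Figure D3:**
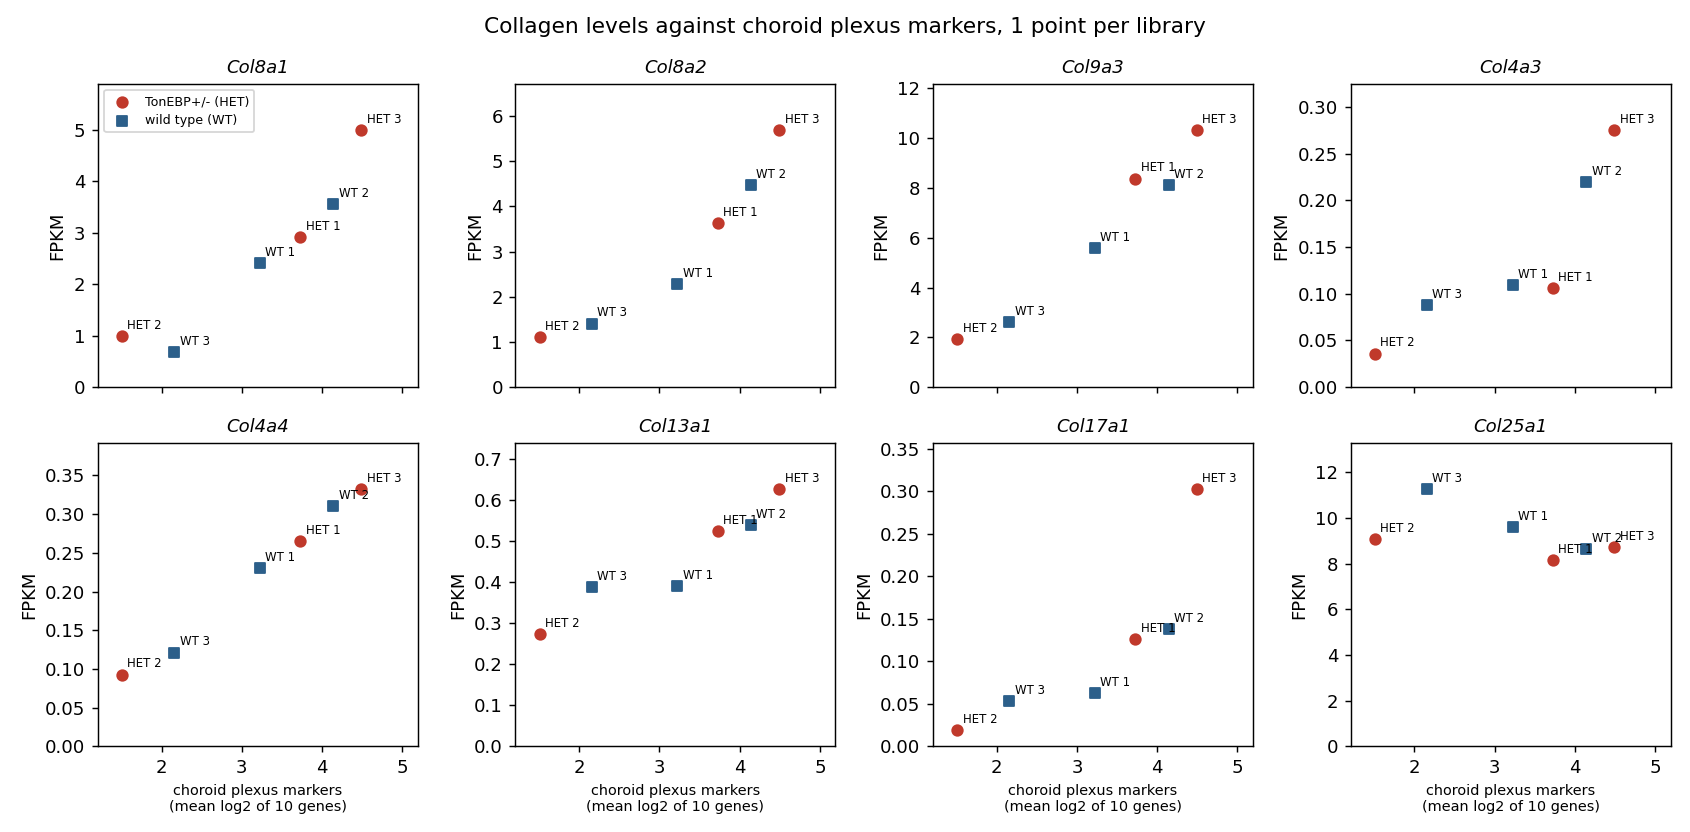
FPKM of 8 collagens in each library against the mean log2(FPKM + 1) of 10 choroid plexus markers, with TonEBP+/- libraries as circles and wild-type libraries as squares. Col8a1, Col8a2, Col9a3, Col4a3, Col4a4, Col13a1 and Col17a1 increase along the axis in both genotypes, while Col25a1 stays between 8.14 and 11.3 FPKM.

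Of the 31 members under the filter, 4 had the same order as the markers within both genotypes, namely Col4a4, Col4a3, Col13a1 and Col17a1, which were singled out after their values were seen. The share with that order among all genes under the filter was not counted, so whether 4 of 31 is unusual cannot be told. Col4a4 was at 0.265, 0.0928 and 0.332 FPKM in HET 1 to 3, against 0.230, 0.310 and 0.121 FPKM in WT 1 to 3, with r = 0.996 with the marker mean. Col4a3, on the other side of the shared start region printed above, was at 0.106, 0.0358 and 0.276 FPKM in HET 1 to 3, against 0.109, 0.220 and 0.0877 FPKM in WT 1 to 3, with r = 0.892. Both chains of this pair were lowest in HET 2 and highest in HET 3. Col13a1, a transmembrane collagen of cell junctions, was at 0.525, 0.274 and 0.626 FPKM in HET 1 to 3, against 0.390, 0.539 and 0.388 FPKM in WT 1 to 3, with r = 0.953. Col17a1, a transmembrane collagen of the skin's hemidesmosomes, was at 0.126, 0.0191 and 0.302 FPKM in HET 1 to 3, against 0.0625, 0.137 and 0.0529 FPKM in WT 1 to 3, with r = 0.854. These levels are near the floor of detection. The lowest library corresponds to an estimated 8 fragments for Col4a4, 3 for Col4a3, 8 for Col13a1 and 1 for Col17a1. Their single p-values are not given. In bulk tissue fewer cells of a type and less RNA per cell cannot be told apart, and the choroid plexus content of a dissection was measured here only through its markers. Col9a3 shares exon bases with Tcfl5 on the opposite strand, and whether strand was used in counting is not given. Tcfl5 was at 0.0703 to 0.167 FPKM in HET libraries and 0.0415 to 0.307 FPKM in WT libraries, far below Col9a3. Col4a3 likewise shares exon bases with C430014B12Rik on the opposite strand, over a longer stretch than Col9a3 with Tcfl5. No level of C430014B12Rik was available, so its part in the low Col4a3 values and their r was not tested.

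The within-genotype spread set the trio apart from most transcripts. The SD of log2(FPKM + 1) within genotypes was 0.89 for Col9a3, 0.77 for Col8a1 and 0.74 for Col8a2, at percentiles 99.5, 99.4 and 99.3 of all genes tested, whose median was 0.12. Col25a1 had an SD of 0.13 and Col16a1 of 0.07, at percentiles 59.8 and 16.4.

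Many chains of collagen I, III, IV, V and VI were highest in 1 library, HET 2. These types hold 18 members, and since they were picked after their values were seen, they are described without a test. HET 2 was the highest library for 10 of the 18, namely Col1a1, Col1a2, Col3a1, Col5a1, Col5a2, Col6a1, Col6a2, Col4a1, Col4a2 and Col4a6. Col3a1, the chain of the reticular fibres around vessels, was at 0.292, 0.815 and 0.393 FPKM in HET 1 to 3, against 0.342, 0.287 and 0.480 FPKM in WT 1 to 3. Col5a1 was at 0.300, 0.631 and 0.437 FPKM in HET 1 to 3, against 0.356, 0.213 and 0.269 FPKM in WT 1 to 3. HET 2 exceeded the mean of the other 5 libraries for 12 of the 18 chains and lay below it for 6, with ratios of 0.224 for Col4a3 up to 2.27 for Col3a1 and a median of 1.37. Col5a3, another chain of collagen V, went the other way, with its lowest level of 0.138 FPKM in HET 2. The mean was higher in HET than in WT libraries for 15 of the 18 chains, and for 12 of the 18 without HET 2. Without HET 2, Col1a1 averaged 0.644 FPKM in HET and 0.584 FPKM in WT libraries, Col1a2 averaged 1.87 FPKM in HET and 1.93 FPKM in WT libraries, and Col3a1 averaged 0.343 FPKM in HET and 0.370 FPKM in WT libraries.

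HET 2 was the highest library for 16 of the 44 members (36.4%), against 18.0% of all genes tested. It was the lowest library for 9 of the 44 (20.5%), against 19.1% of all genes tested. WT 2 was the lowest library for 15 of 44 (34.1%), against 19.1% of all genes tested. The 44 include 31 members under the filter, so these sets are unlike. Among the 13 tested members HET 2 was highest for 6 (46.2%) and WT 2 lowest for 6 (46.2%). Part of the markers of meningeal fibroblasts and mural cells, which are known to make such chains, were also highest in HET 2, namely 9 of 14 meningeal and 7 of 12 mural markers, beside 6 of 12 endothelial markers. Dcn, a proteoglycan of meningeal fibroblasts, was at 19.9, 41.6 and 26.4 FPKM in HET 1 to 3, against 22.4, 21.8 and 24.1 FPKM in WT 1 to 3. Tagln, an actin-binding protein of vascular smooth muscle, was at 5.57, 12.9 and 6.66 FPKM in HET 1 to 3, against 7.30, 5.41 and 8.03 FPKM in WT 1 to 3. HET 2 was the highest library for both, which were picked as examples after their values were seen. Igfbp2, a meningeal marker that did not follow, was at 39.8, 24.5 and 62.3 FPKM in HET 1 to 3, against 36.8, 60.5 and 24.3 FPKM in WT 1 to 3. Summed over 12 mural cell markers, of which 10 passed the filter, levels were 77.3, 115 and 87.0 FPKM in HET 1 to 3, against 84.5, 75.6 and 98.4 FPKM in WT 1 to 3. Over 14 meningeal fibroblast markers, of which 13 passed, they were 144, 197 and 209 FPKM in HET 1 to 3. In WT 1 to 3 they were 141, 196 and 115 FPKM. The meningeal sum was thus highest in HET 3 and about equal in HET 2 and WT 2. Igfbp2 and Igf2 were its largest markers in HET 3, at 62.3 and 42.4 FPKM, against 24.5 and 24.9 FPKM in HET 2. Both were highest in HET 3 and next highest in WT 2, as were the choroid plexus markers by their mean. The meningeal sum therefore mixes different patterns, and a sum without Igfbp2 and Igf2 was not computed. Summed endothelial markers (12 of 12 passed) were nearly level, at 117 to 121 FPKM in HET and 116 to 117 FPKM in WT libraries. Single endothelial markers varied more and in opposite directions. Slco1c1 ran from 18.0 FPKM in WT 3 to 31.9 FPKM in HET 3, and Cldn5 from 14.5 FPKM in HET 3 to 23.2 FPKM in HET 2. The level sum thus does not show that each marker was level. No marker of these lists was at 0 in all libraries. Against the meningeal marker mean, no gene of the 13122 had a slope past the threshold in limma, and no collagen among them. That mean joined markers highest in HET 2 with others, such as Igfbp2 and Igf2, that were highest in HET 3. It ran only from 2.76 to 3.42 over the libraries, and the SE of the slope reached 2.05 for Col9a3. The fit thus had little power to show a relation. The part of these cell types in the collagen levels was not tested otherwise.

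**Figure D4:**
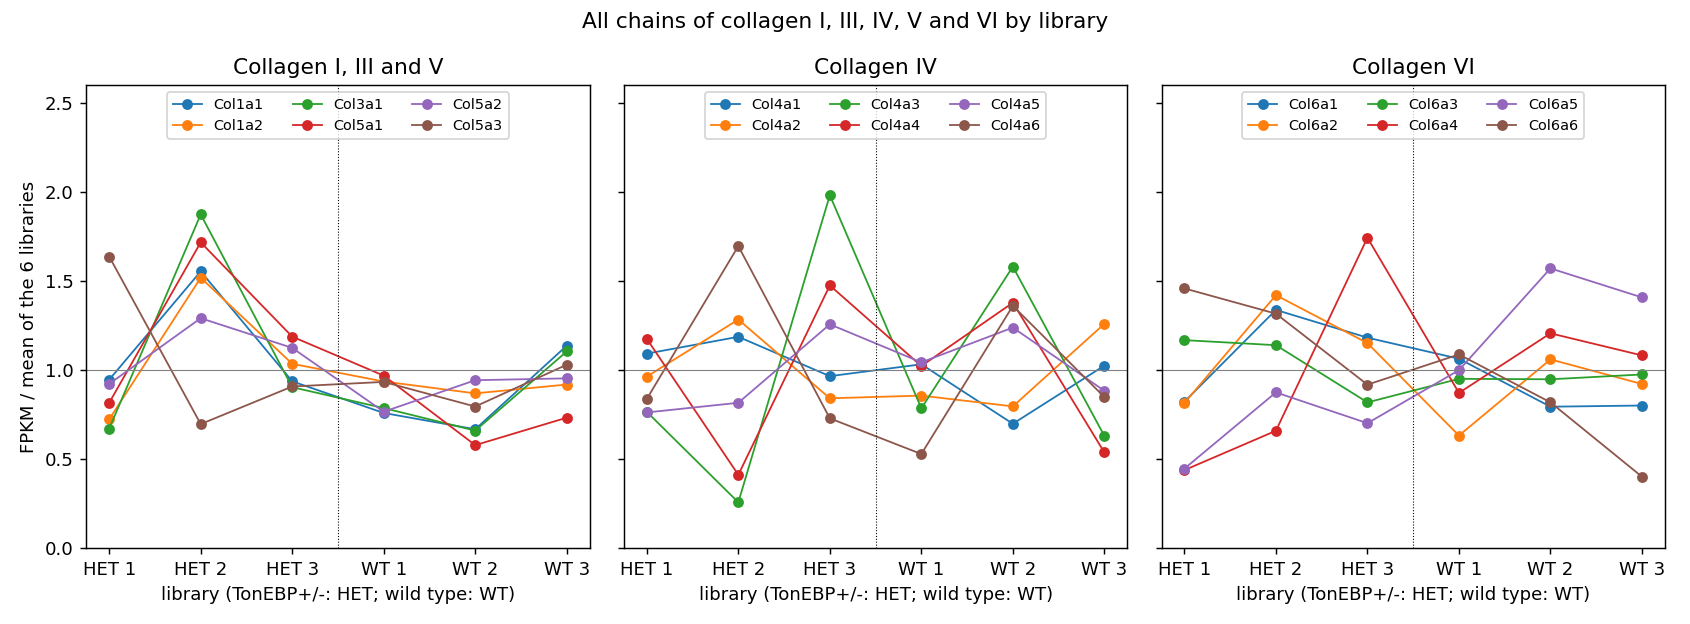
Level of the 18 chains of collagen I, III, IV, V and VI in each library divided by the gene's mean over the 6 libraries, with TonEBP+/- libraries left of the dotted line and wild-type libraries right of it; the lines join points of 1 gene. HET 2 is the highest library for 10 of the 18 chains, and Col4a3, Col4a4 and Col5a3 are lowest there.

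Between genotypes no collagen passed the test. limma called 0 of the 13122 genes tested at an adjusted p of 0.05 (0%), with 484 at an unadjusted p under 0.05 and a smallest adjusted p of 0.383. Among the 13 tested collagens 0 passed, 0 had an unadjusted p under 0.05, and each had an adjusted p of 1.00. The value of 12 of the 13 was above 0, that is higher in HET, against 50% of all genes tested, and without 1 library the number was 9 to 12. It was 9 without HET 2, without HET 3 and without WT 3. The values that turned below 0 were those of Col1a2, Col4a2 and Col9a2 without HET 2, and those of Col8a1, Col8a2 and Col9a3 without HET 3 or without WT 3. The median log2 difference was 0.15 over the 2 fibrillar, 0.13 over the 2 basement membrane and 0.15 over the 9 other members tested, beside 0.00 over all genes tested. With 1 library left out these medians ran from 0.06 to 0.20, from 0.01 to 0.24 and from 0.05 to 0.19 in the same order. They were 0.12 over the 11 fibrillar, 0.03 over the 6 basement membrane and 0.06 over the 27 other members without the filter. The low end came without HET 2 for the fibrillar, without WT 2 for the basement membrane and without HET 3 for the other members.

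The member with the smallest p was the most abundant. Col25a1 differed by -0.16 on the log2(FPKM + 1) scale (SE 0.101, limma adjusted p = 1.00), with means of 8.64 ± 0.467 FPKM in HET and 9.83 ± 1.33 FPKM in WT libraries (SD, n = 3 each). It was the only tested collagen with a value below 0, and its 95% interval ran from -0.39 to 0.06. Col4a1 differed by 0.19 (SE 0.135), Col6a1 by 0.18 (SE 0.146), Col1a2 by 0.15 (SE 0.172), Col18a1 by 0.15 (SE 0.137), Col11a2 by 0.14 (SE 0.120) and Col4a2 by 0.07 (SE 0.164), and none passed the test. The 3 collagens with the largest errors were those that varied with the choroid plexus markers within genotypes. Col8a1 differed by 0.28 (SE 0.570), with an interval from -1.19 to 1.75, Col8a2 by 0.20 (SE 0.543) and Col9a3 by 0.17 (SE 0.695). The difference of Col9a3 also turned below 0 without HET 1. With the choroid plexus marker mean as a covariate the differences were 0.24 for Col8a1, 0.16 for Col8a2 and 0.13 for Col9a3, and none passed. Differences of low genes are understated on this scale.

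**Figure D5:**
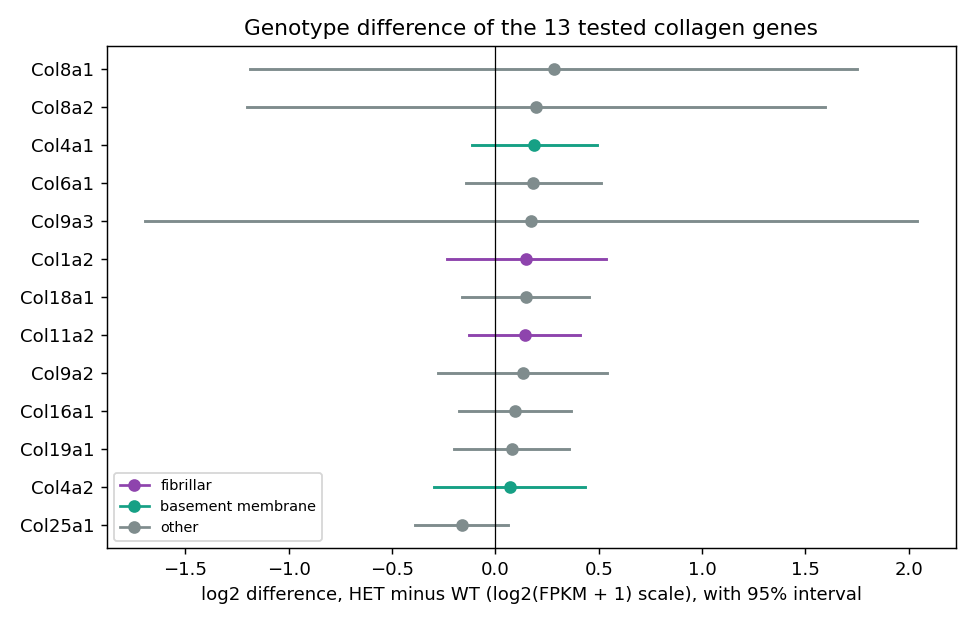
Difference of HET minus WT on the log2(FPKM + 1) scale for the 13 tested collagens, as points with 95% intervals from limma, coloured by class and ordered by size. Every interval crosses 0, and those of Col8a1, Col8a2 and Col9a3 are the widest.

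Col16a1 was the only tested collagen whose genotypes did not overlap with HET higher, where 4.13% of all genes tested had that pattern, and 0 tested collagens did so with HET lower, where 4.39% of all genes had it. Its difference was 0.10 (SE 0.121, limma adjusted p = 1.00), with means of 1.26 ± 0.0313 FPKM in HET and 1.12 ± 0.139 FPKM in WT libraries (SD, n = 3 each). The exact permutation test of 3 against 3 libraries cannot go below 0.1. Outside the tested set, Col6a5 was at 0.0738, 0.145 and 0.116 FPKM in HET 1 to 3, against 0.165, 0.260 and 0.233 FPKM in WT 1 to 3. The lowest of these rests on an estimated 5 fragments.

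Collagen chains pass through a shared pathway of modification, secretion, processing and breakdown, and none of its genes passed the genotype test either. Of the enzymes and chaperones of modification and folding, 13 of 20 tested were higher in HET and 7 lower. The smallest p was that of P4ha1, a catalytic subunit of prolyl hydroxylase, at 14.4, 14.7 and 15.7 FPKM in HET 1 to 3, against 11.8, 11.8 and 13.6 FPKM in WT 1 to 3, a difference of 0.25 (SE 0.0822, limma adjusted p = 1.00). Serpinh1, the collagen chaperone of the endoplasmic reticulum, was at 10.6, 11.7 and 13.4 FPKM in HET 1 to 3, against 8.14, 11.7 and 7.95 FPKM in WT 1 to 3, a difference of 0.34 (SE 0.143). P4ha1 did not overlap between genotypes, and Serpinh1 did.

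Of the procollagen processing and cross-linking genes, 3 of 6 tested were higher in HET and 3 lower. Pcolce, which speeds removal of the procollagen tail, was at 2.42, 2.52 and 4.15 FPKM in HET 1 to 3, against 1.92, 2.45 and 1.72 FPKM in WT 1 to 3, a difference of 0.39 (SE 0.171). HET 3 was the highest library, and the other HET libraries lay near WT 2. Of the degradation genes, 6 of 9 tested were higher and 3 lower. Ctsk, a lysosomal collagenase, differed by 0.30 (SE 0.151), Mmp15, a membrane-bound protease, by -0.24 (SE 0.123), and Reck, an inhibitor of such proteases, by 0.22 (SE 0.117). Reck did not overlap between genotypes, and Ctsk and Mmp15 did. Of the collagen receptors, 4 of 6 tested were higher and 2 lower. Ddr2, a kinase activated by fibrillar collagen, was at 1.96, 2.30 and 2.40 FPKM in HET 1 to 3, against 1.77, 1.69 and 1.65 FPKM in WT 1 to 3, a difference of 0.25 (SE 0.112), and the genotypes did not overlap.

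The non-collagen partners gave a similar picture. In the basement membrane list 5 of 7 tested genes were higher in HET and 2 lower. Its smallest p was that of Sparc, a collagen-binding protein of astrocytes and vessels, at 143, 107 and 112 FPKM in HET 1 to 3, against 158, 143 and 125 FPKM in WT 1 to 3, a difference of -0.24 (SE 0.123). In the fibrillar matrix list 4 of 6 were higher and 2 lower, led by Fbln1, a glycoprotein of elastic fibres and basement membranes, at 2.66, 2.80 and 2.67 FPKM in HET 1 to 3, against 2.19, 2.21 and 1.92 FPKM in WT 1 to 3, a difference of 0.26 (SE 0.105). Fbln1 did not overlap between genotypes, and Sparc did. P4ha1, Reck, Ddr2 and Fbln1 were named for a small p within their lists, a choice that favours genes without overlap. Of all genes tested, 4.13% had no overlap with HET higher. The medians of the 6 pathway lists lay between 0.01 and 0.07, beside 0.00 over all genes tested. For comparison, 13 of 13 tested meningeal fibroblast markers were higher in HET, with a median of 0.29 and 0 past the threshold, and 12 of 12 thalamus markers were lower, with a median of -0.41 and 0 past the threshold. Their part in the differences of the collagen pathway was not tested.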

How the data were processed

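Hippocampal RNA was extracted with Trizol, and the libraries were prepared by a strand-specific NEBNext Ultra II kit, as the labels' protocols state. TopHat was the aligner and mm10 the genome, per the submitters' processing notes. The sources used here do not name the TopHat version, the annotation, the quantifier or whether counting used strand. The deposited values, 24346 per library, were on a log2 scale. Their unit was read from the values, which behaved as log2(FPKM + 1), as low values fell in steps that depended on gene length (78.3% to 81.1% lay within 0.15 of a whole step). In HET 1, HET 3, WT 1 and WT 3, 2199 to 2609 genes had values under 0.001 FPKM in place of 0.

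Groups followed the labels. The 13122 genes at 1 FPKM or more in 3 of 6 libraries went into limma 3.58.1 (R 4.3.3) with a genotype term, the trend and robust options and Benjamini-Hochberg adjustment, after a test on simulated data. Members and lists were chosen with earlier results of these data known. Full values were given for the 4 most abundant and 3 lowest-p tested members per class, those without overlap between genotypes, and up to 3 lowest-p genes per pathway list. Other names were chosen after values were seen. GENCODE M21 (GRCm38) gave exons and transcripts, and RefSeq (GRCm38.p6) gave promoters. Correlations used scipy 1.17.1. Alternatives were other scalings, filters and pseudocounts, a replicate block, marker covariates, and leaving out each library.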

Additional observations from a re-analysis of the deposited data

How the results depend on the processing

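No collagen was called under any of the 15 alternatives to the genotype fit. With a library left out, 0 to 8 genes of all those tested were called, 8 without HET 1 and 1 each without HET 3, WT 1 and WT 2, where a cause was not tested. The replicate block gave 0 called genes, 384 at an unadjusted p under 0.05, and unchanged medians (0.15 in fibrillar, 0.13 in basement membrane and 0.15 in other collagens), and it changed no call of a collagen. At a mean of 5 FPKM or more only 2 members were left, both in the other class, with a median of 0.0053. These were Col9a3, with a difference of 0.17, and Col25a1, with -0.16, both unchanged from the genotype fit. Of the tested members, Col1a2 turned to -0.045 with the meningeal markers as a covariate, a setting chosen after seeing the data, as was the choroid plexus covariate, under which no sign changed. Leaving out each library gave differences of -0.040 to 0.33 for Col1a2 and -0.039 to 0.29 for Col9a2 (below 0 without HET 2), -0.063 to 0.22 for Col4a2 (below 0 without HET 2, and -0.028 without WT 2), -0.13 to 0.71 for Col8a1 and -0.17 to 0.67 for Col8a2 (below 0 without HET 3 or WT 3), and -0.20 to 0.78 for Col9a3 (below 0 without HET 1, HET 3 or WT 3). The number of members with a called slope on the choroid plexus markers was 3 under each scaling and pseudocount tried and 2 to 3 with a library left out, which were also chosen after seeing the data. Depth limits the 31 members under the filter, whose lowest values rest on few fragments. Same-numbered libraries deviated in opposite directions (r of -0.21, -0.25 and -0.16), so the replicate numbers were not taken to pair the libraries.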
